A study of Mus musculus with 6 samples.

Results

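The respiratory chain genes described here are the nuclear genes for the subunits of complexes I to V of the mitochondrial inner membrane, together with assembly factors of complex I that carry the same gene prefix. They were taken by symbol (Nduf followed by a, b, c, s or v, the 4 Sdh genes, Uqcr, Cox4 to Cox8 and Atp5), each from a probe set that names 1 gene, and the brightest probe set stood for a gene with several. This gave 89 of the 19938 genes measured. There were 34 genes of complex I, 7 assembly factors of complex I, 4 genes of complex II, 8 of complex III, 19 of complex IV and 17 of complex V. Ndufa4 and its paralogue Ndufa4l2 were counted with complex IV, where the Ndufa4 protein resides. RNA came from embryoid bodies (EBs), floating aggregates of differentiating cells, made from the established mouse embryonic stem (ES) cell line R1 without leukaemia inhibitory factor. Retinoic acid (RA), a vitamin A derivative that directs cell fate through nuclear receptors, was added at 2 µM to EBs that were 4 days old. The groups were EBs at the time RA was added (day 0) and EBs kept in RA for 3 days (day 3) or 4 days (day 4), with 2 Affymetrix Mouse Gene 1.0 ST arrays for each. All 3 groups share the cell line and the withdrawal of the inhibitory factor, and only day 3 and day 4 had RA. Since EBs of like age that never had RA were not analysed here, effects of RA and of age cannot be told apart. Whether the arrays of a day stem from separate cultures is not in the labels, and the p-values reflect only the spread between them, which may be technical.

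Complex I (NADH dehydrogenase) and complex II (succinate dehydrogenase) pass electrons from fuel breakdown to coenzyme Q, complex III (the cytochrome bc1 complex) passes them on to cytochrome c, and complex IV (cytochrome c oxidase) gives them to oxygen. Complexes I, III and IV pump protons across the inner membrane as they do so, and complex V (ATP synthase) lets the protons back to make ATP. Most subunits are encoded in the nucleus and imported, and a few are encoded by mitochondrial DNA. Pluripotent cells are known for a high rate of glycolysis, and reliance on oxidative phosphorylation is known to grow in many lineages as they differentiate.

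Values are log2 intensities after Robust Multichip Average (RMA), so a difference of 1 is 2-fold. Across the 19938 genes, the difference between the 2 arrays of a day had an SD of 0.117 to 0.125. The 12 ES cell markers had a summed linear intensity of 10510 and 10130 on the day 0 arrays and between 1380 and 1558 on the later arrays. Setting all array medians equal (median centring) shifted the median change of all genes between day 0 and day 4 from 0.00 to −0.15. The direction of changes this small thus depends on the scaling, and the counts of members called are given beside the shares of all genes called. The members were bright. Their median intensity on an array lay between 10.61 and 10.88, against 7.49 to 7.66 for all genes.

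Transcription of nuclear respiratory chain genes is classically tied to sites for NRF1, for the ETS factor GABPA and for YY1 close to the start site. The promoters of 73 of the 89 members were in the RefSeq table used here (assembly GRCm38.p6, 250 bases before to 50 bases after the start). A gene with several promoters in the table counted as holding a motif if any of them did. The letters GCGCNTGCG, a short form of the NRF1 motif, were present on either strand in 34.2% of the member promoters, against 18.6% of the promoters of measured genes with a mean intensity of 9 or more and 7.12% of all promoters. The ETS letters CCGGAAG were present in 24.7% of member promoters, 23.7% of those of the bright genes and 9.93% of all promoters. The YY1 letters AAGATGGCG were present in 9.59%, 4.64% and 1.64% of them. At least 1 of the 3 motifs was present in 56.2% of the member promoters, 40.3% of those of the bright genes and 16.6% of all. These shares carry no test, and the bright genes were not matched to the members, which had a lower median GC content (58.3% against 62.0%) and of which 68 of 89 reached a mean of 9. By complex, the NRF1 letters were found in 9 of 15 promoters of complex V, 8 of 31 of complex I and 1 of 13 of complex IV.

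The 170 bases before the start are printed 5′ to 3′ on the strand of the gene for 6 members, chosen after their values were seen. Ndufb7, Uqcrh, Uqcr11, Cox6a1 and Atp5e rose between day 3 and day 4, and their windows hold at least 1 motif. Cox7a1, with the largest fall of all members, holds none. In complex IV as a whole, 3 of 13 promoters held any of the 3 motifs, so the 6 windows show no link of motif and change. Capitals mark the NRF1 or ETS letters on either strand, and no other RefSeq gene overlaps these windows.
Ndufb7 (chr8:83566588-83566757, plus strand): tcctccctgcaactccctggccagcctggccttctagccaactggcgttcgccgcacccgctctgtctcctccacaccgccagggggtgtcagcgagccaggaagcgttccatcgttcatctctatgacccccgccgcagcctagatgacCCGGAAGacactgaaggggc
Uqcrh (chr4:116075071-116075240, minus strand): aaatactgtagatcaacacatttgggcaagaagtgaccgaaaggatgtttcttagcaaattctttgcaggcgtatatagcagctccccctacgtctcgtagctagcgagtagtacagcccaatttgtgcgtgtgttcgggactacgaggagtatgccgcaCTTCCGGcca
Uqcr11 (chr10:80406822-80406991, minus strand): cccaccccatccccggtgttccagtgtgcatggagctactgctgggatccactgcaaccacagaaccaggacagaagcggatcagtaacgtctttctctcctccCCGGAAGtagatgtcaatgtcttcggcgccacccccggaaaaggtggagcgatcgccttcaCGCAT
Cox6a1 (chr5:115348959-115349128, minus strand): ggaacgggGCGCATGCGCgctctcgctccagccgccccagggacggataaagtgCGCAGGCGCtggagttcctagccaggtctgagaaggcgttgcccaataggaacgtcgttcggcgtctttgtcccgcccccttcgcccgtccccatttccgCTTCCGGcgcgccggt
Atp5e (chr2:174464102-174464271, minus strand): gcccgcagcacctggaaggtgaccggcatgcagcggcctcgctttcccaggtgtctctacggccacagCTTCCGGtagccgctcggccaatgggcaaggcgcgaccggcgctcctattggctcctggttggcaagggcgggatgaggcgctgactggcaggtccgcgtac
Cox7a1 (chr7:30184001-30184170, plus strand): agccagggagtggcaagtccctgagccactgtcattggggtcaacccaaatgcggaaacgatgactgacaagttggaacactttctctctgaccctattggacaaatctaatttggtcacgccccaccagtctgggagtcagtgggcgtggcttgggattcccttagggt
With −1 as the base just before the start, the Cox6a1 window held NRF1 letters at −162 to −154 on the strand of the gene and at −161 to −153 and −116 to −108 on the other and the ETS letters at −16 to −10. The ETS letters lay at −10 to −4 in Uqcrh, at −20 to −14 in Ndufb7, at −66 to −60 in Uqcr11 and at −102 to −96 in Atp5e. In Uqcr11, NRF1 letters also ran from −5 across the start, so the printed window ends inside them. A match of letters describes the sequence and does not show that a factor bound there. At least 1 motif was present in 22 of the 37 member promoters whose genes rose between day 3 and day 4 and in 19 of the other 36.

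Between day 3 and day 4 a larger share of the respiratory chain genes rose than of all genes. Of the 89 members, 45 (50.6%) were higher at day 4 at an adjusted p of 0.05 or below (limma, adjusted over all 19938 genes), against 15.8% of all genes. Members called lower numbered 0, against 12.2% of all genes, and 0 members were lower at an unadjusted p below 0.05 either. The difference was positive for 83 of the 89, and its median was 0.21, against 0.05 over all genes. Both day 4 arrays lay above both day 3 arrays for 74 members (41.3% of all genes) and below them for 2 (25.2% of all genes). The changes were small: 0 members differed 2-fold, and the largest difference was 0.93. Of the 68 members whose mean intensity reached 9, 38 (55.9%) were higher and 0 lower, against 21.2% and 20.2% of all genes that bright. The count of 45 fell to 18 without the first day 3 array (6.8% of all genes higher) and to 18 without the second day 4 array (8.2% of all genes). It was 31 without the second day 3 array and 30 without the first day 4 array (10.1% and 10.2% of all genes). It was 24 when the arrays were shifted to equal ribosomal protein genes (8.14% of all genes) and 37 with median centring (11.4% of all genes). With an intensity trend and robust moderation, 62 members were higher and 1 was lower (19.2% and 15.0% of all genes). Of the 45 calls, 12 held under all 14 alternatives of processing or left-out arrays. Where a call on a single gene named below was lost in 5 or more of the 14, the number is given.

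**Figure D1:**
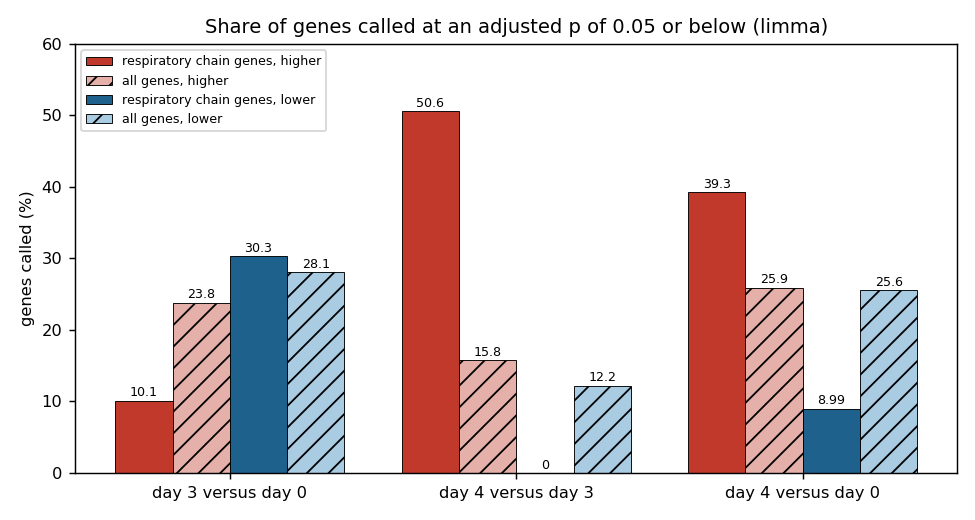
Share of genes called higher or lower at an adjusted p of 0.05 or below (y axis, percent) in each comparison, for the 89 respiratory chain genes (solid bars) and all 19938 genes (hatched bars). At day 4 versus day 3, 50.6% of the respiratory chain genes were higher and 0 lower, against 15.8% and 12.2% of all genes. The split at day 4 versus day 0 turned with median centring, which gave 16 members higher and 22 lower.

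Between day 0 and day 3 the members gave no such pattern. There were 9 members higher at day 3 (10.1%, against 23.8% of all genes) and 27 lower (30.3%, against 28.1% of all genes), and the median difference was −0.05 for the members and −0.05 for all genes. Both day 3 arrays lay above both day 0 arrays for 26 members (31.9% of all genes) and below them for 41 (43.5% of all genes). The share called lower was thus near that of all genes, and the share called higher was below it. Of the 68 members whose mean intensity reached 9, 10.3% were higher and 23.5% lower. Of all genes that bright, 33.6% were higher and 37% lower, so both shares of the bright members were smaller. The sign of the median is not settled, since it was 0.01 when the ribosomal protein genes were equalised and −0.15 with median centring. Only 2 members, Cox7a1 and Cox4i2, differed 2-fold.

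Over the whole interval, from day 0 to day 4, 35 members were higher (39.3%, against 25.9% of all genes) and 8 were lower (8.99%, against 25.6% of all genes), with 4 lower without the first and 5 without the second day 0 array. Of the 68 members whose mean intensity reached 9, 47.1% were higher and 5.88% lower. Of all genes that bright, 34.6% were higher and 37.9% lower. Both day 4 arrays lay above both day 0 arrays for 56 members (36.6% of all genes) and below them for 18 (36.4% of all genes). The median difference of the members was 0.11 and that of all genes 0.00. Median centring turned this split to 16 members higher and 22 lower, as it turned that of all genes from 25.9% higher and 25.6% lower to 19.0% higher and 42.7% lower. The median of the members lay 0.108 above that of all genes with and without centring, which shifts whole arrays and cannot change this distance. The comparisons share arrays, so the values of a gene in them are not independent and are given side by side.

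Markers of embryonic red cells moved in the same interval. The 7 measured red cell genes, which include the globins Hba-x, Hbb-y and Hbb-bh1, had a summed linear intensity of 1636 and 1488 on the day 0 arrays, 24950 and 22350 at day 3, then 7179 and 6223 at day 4. All 7 were higher at day 3 than at day 0 (23.8% of all genes), and 6 were lower at day 4 than at day 3 (12.2% of all genes). Of the 7, 0 stayed below 6 on all arrays. The part of these cells in the changes of the respiratory chain genes was not tested. The 17 heart and skeletal muscle markers summed to 2793 and 2755 at day 0, 2404 and 2441 at day 3, then 2504 and 2598 at day 4, and 0 of them passed between day 3 and day 4. In bulk RNA, fewer cells of a type and less RNA per cell cannot be told apart.

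**Figure D2:**
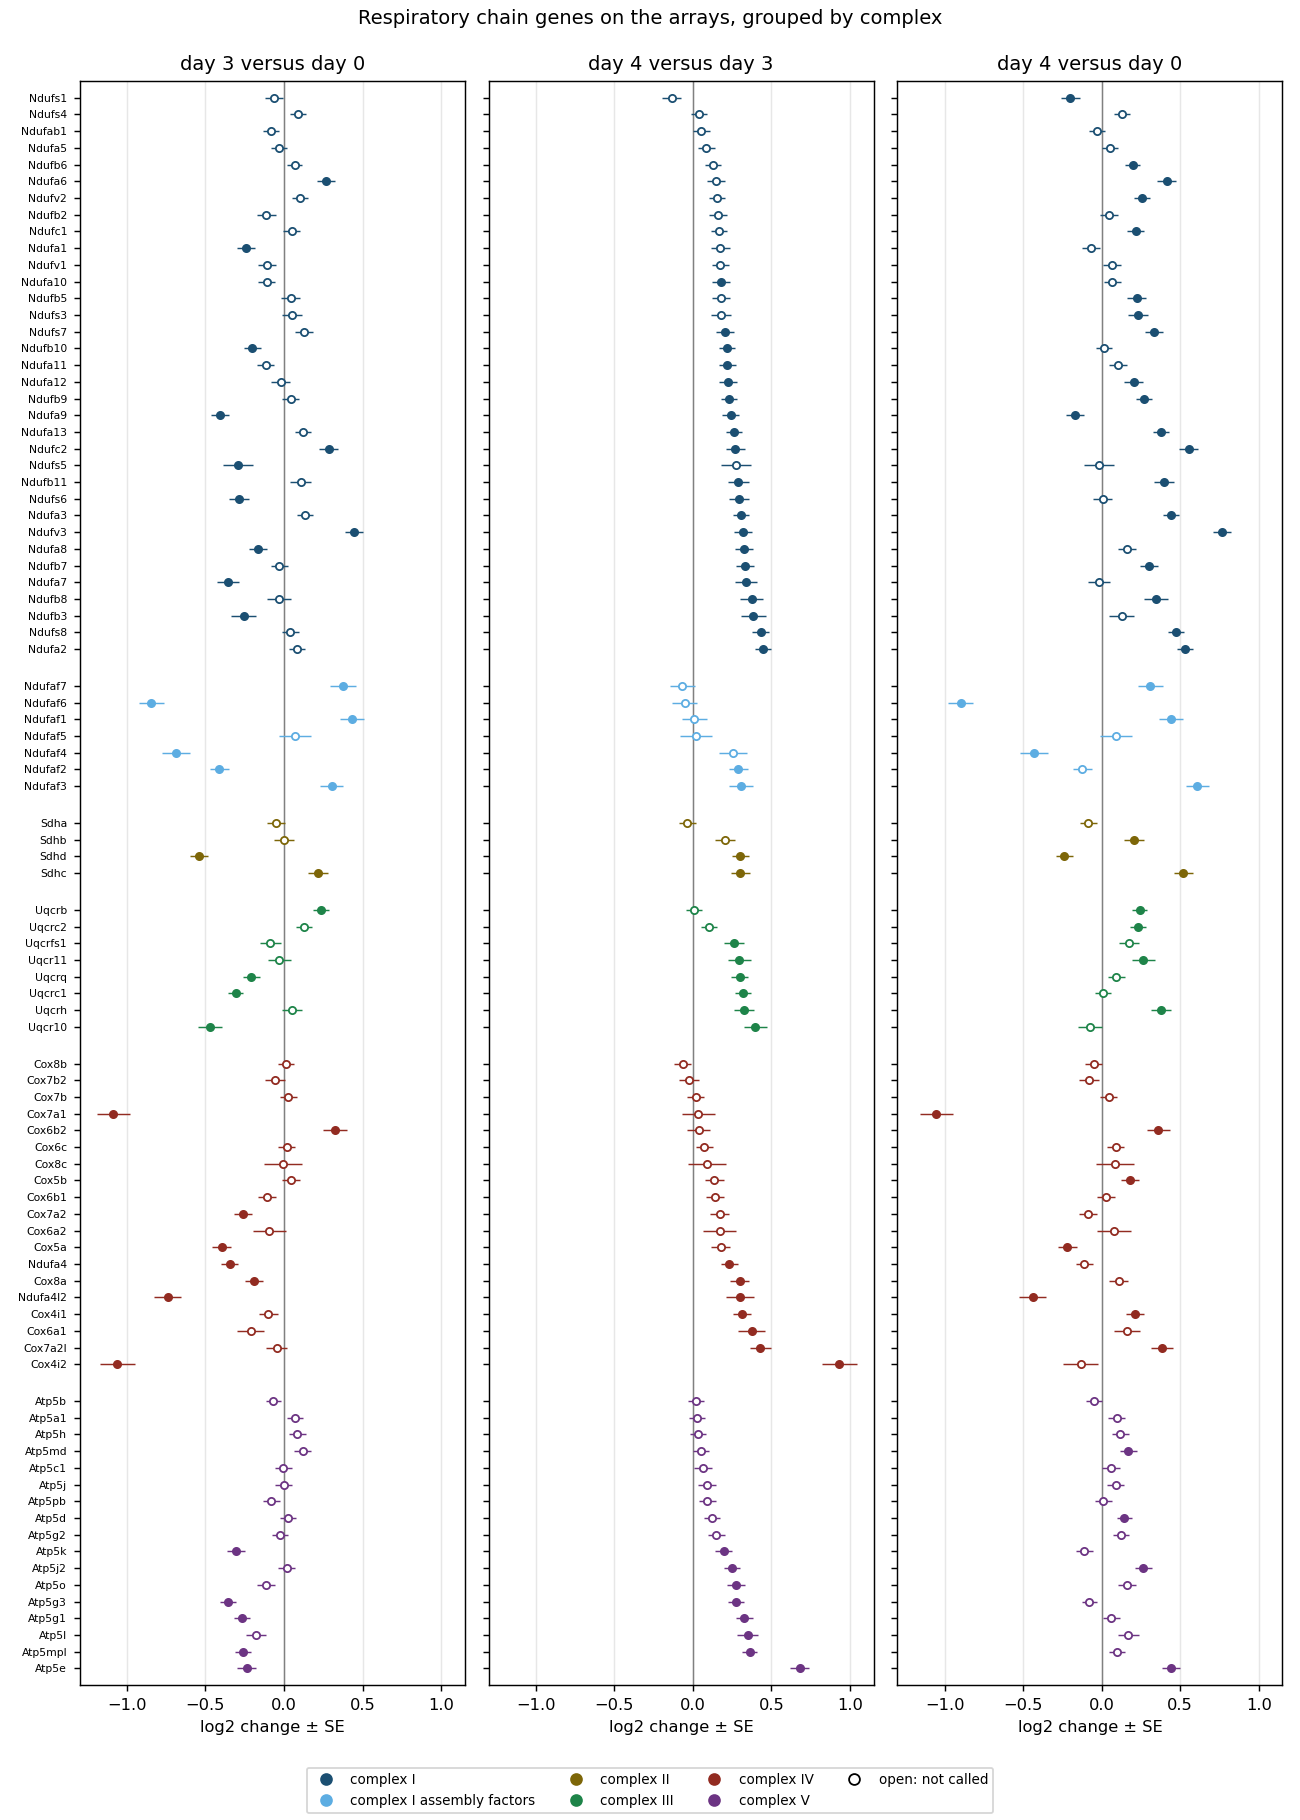
Log2 change of each of the 89 genes (x axis, point with SE) in the 3 comparisons, grouped by complex and ordered by the day 4 versus day 3 change, with filled points for genes called at an adjusted p of 0.05 or below and open points for the rest. In the middle panel 83 of the 89 points lie to the right of 0, while the outer panels spread to both sides.

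In complex I all but 1 of the 34 subunits stood higher at day 4 than at day 3. Of the 34, 20 passed as higher (58.8%, against 15.8% of all genes) and 0 as lower (12.2% of all genes), and both day 4 arrays lay above both day 3 arrays for 33 of them. The number higher was 9 with the ribosomal protein genes equalised (8.14% of all genes), 15 with median centring (11.4%) and 20 with cyclic loess (13.3%). The median was 0.22, and it stayed between 0.14 and 0.21 under the other 3 scalings. The exception was Ndufs1, the largest iron-sulphur subunit of the arm that takes up NADH. It read 10.42 and 10.41 at day 0, 10.39 and 10.31 at day 3, then 10.26 and 10.17 at day 4, and it was the only subunit of complex I with both day 4 arrays below both day 3 arrays. Its difference from day 3 to day 4 was −0.14 (SE 0.06, adjusted p = 0.133, limma), and it fell between day 0 and day 4 by 0.20 (adjusted p = 0.0249), a call that was lost without any one of the first day 0, second day 0 and second day 4 arrays.

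Ndufa2, an accessory subunit of the same arm, had the largest rise of complex I at this step. It read 10.08 and 10.06 at day 0, 10.13 and 10.17 at day 3, then 10.59 and 10.60 at day 4. The day 0 and day 3 arrays thus lay close together and the day 4 arrays well above both, with a rise of 0.45 from day 3 (SE 0.05, adjusted p = 0.00137). Ndufs8, a core subunit whose iron-sulphur clusters carry electrons towards coenzyme Q, behaved alike. It read 11.52 and 11.51, then 11.52 and 11.58, then 11.97 and 12.00 at day 0, 3 and 4, and it rose by 0.43 from day 3 (SE 0.05, adjusted p = 0.00182) and by 0.47 from day 0 (adjusted p = 0.000195). Ndufa3, Ndufb7 and Ndufs7 also rose from day 3 to day 4, by 0.31, 0.33 and 0.21, and the call of Ndufs7 was lost in 8 of the 14 alternatives.

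Other subunits of complex I already rose by day 3. Ndufv3, a small subunit of the flavoprotein part that exists in a short and a long splice form, had the largest rise of all members over the whole interval. It read 9.43 and 9.40 at day 0, 9.81 and 9.91 at day 3, then 10.19 and 10.17 at day 4, so that the arrays of the 3 days did not overlap and followed the order of the days. The rise was 0.45 by day 3 (SE 0.06, adjusted p = 0.000419) and 0.77 by day 4 (adjusted p = 2.22e-05). Ndufc2, a subunit of the membrane arm, followed the same order, with 12.14 and 12.05, then 12.34 and 12.42, then 12.64 and 12.66, a rise of 0.55 over the whole interval (SE 0.06, adjusted p = 0.00015). Ndufa6 rose by 0.27 to day 3 and by 0.41 to day 4.

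A further 8 subunits of complex I were lower at day 3 than at day 0 (23.5%, against 28.1% of all genes), and 6 of them rose again by day 4. The number lower was 4 with the ribosomal protein genes equalised, 6 with cyclic loess and 14 with median centring. Ndufa9, which lies where coenzyme Q enters, read 11.22 and 11.25 at day 0, 10.79 and 10.86 at day 3, then 11.04 and 11.09 at day 4. Its day 3 arrays were the lowest and its day 4 arrays lay between the others. It fell by 0.41 to day 3 (SE 0.06, adjusted p = 0.000585) and rose by 0.24 from day 3 to day 4 (adjusted p = 0.0186), a rise that was lost when the ribosomal protein genes were equalised. Ndufa7 took the same course, with 10.0005 and 10.19 at day 0, 9.74 and 9.74 at day 3, then 10.06 and 10.09 at day 4. It fell by 0.36 and rose by 0.34, and its day 0 and day 4 arrays overlapped. The others of these 8 were Ndufa1, Ndufa8, Ndufb3, Ndufb10, Ndufs5 and Ndufs6, with differences between −0.17 and −0.29 at day 3, and Ndufa1 and Ndufs5 did not pass between day 3 and day 4 (0.17 and 0.27). The day 3 calls of Ndufa8 and Ndufs5 were lost in 9 and 6 of the 14 alternatives and those of Ndufb3, Ndufb10 and Ndufa1 in 4, 3 and 2, while that of Ndufs6 was lost in 0. The later rise of Ndufb10 was lost in 7.

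Of the core subunits of complex I measured besides Ndufs1, Ndufs3, Ndufs7, Ndufs8 and Ndufv2 were higher at day 4 than at day 0, by 0.23, 0.33, 0.47 and 0.26, and the calls of Ndufs3 and Ndufv2 were lost in 3 and 1 of the alternatives, median centring among them. Ndufv1, which binds NADH, read 11.28 and 11.34, then 11.18 and 11.22, then 11.34 and 11.41, with differences of 0.07 from day 0 and 0.17 from day 3 that did not pass (adjusted p = 0.387 and 0.0563). Over the whole interval complex I had 18 subunits higher (52.9%, against 25.9% of all genes) and 2 lower (5.88%, against 25.6% of all genes), with a median of 0.20. With median centring 10 were higher and 4 lower, and the median was 0.05.

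**Figure D3:**
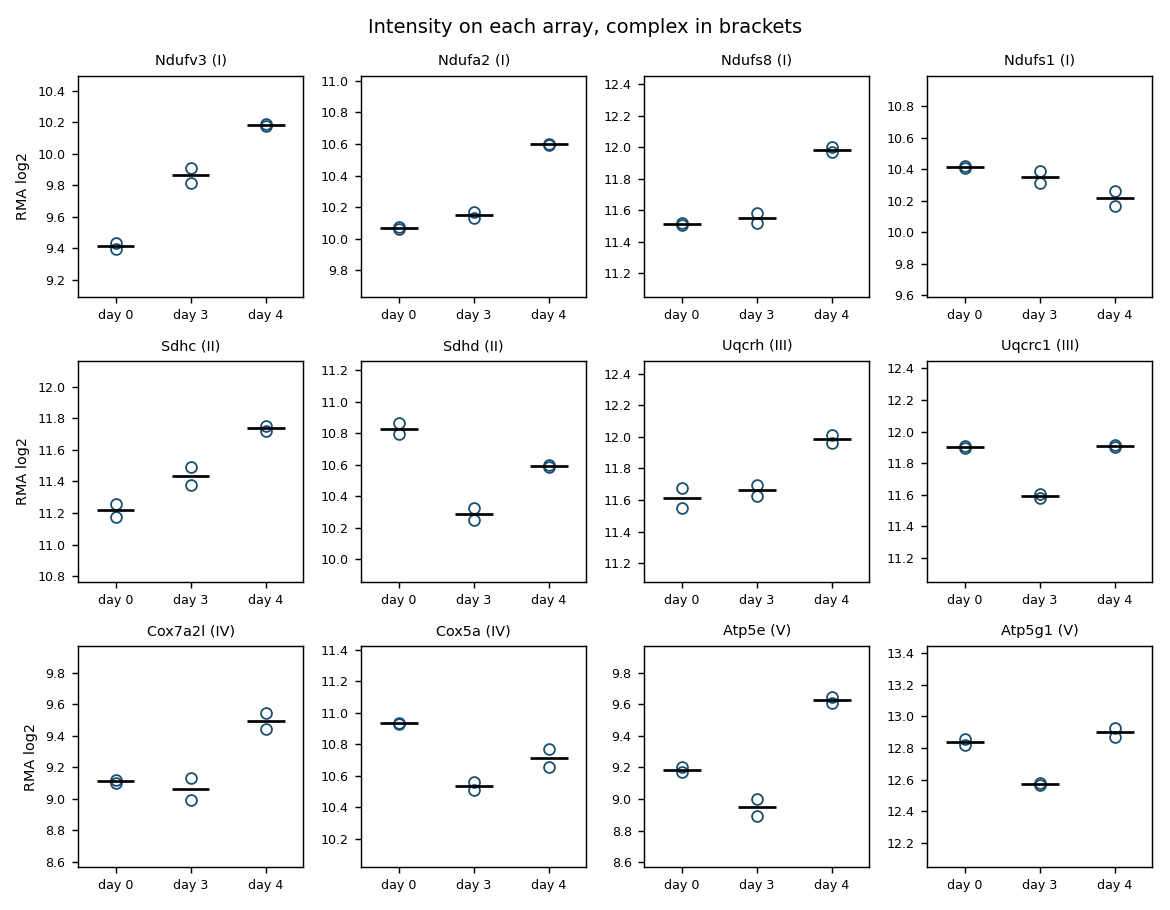
Log2 intensity (RMA, y axis) on each of the 6 arrays for 12 genes of complexes I to V, with circles for arrays and bars for the mean of a day. Ndufv3, Ndufa2, Ndufs8, Sdhc, Uqcrh, Cox7a2l and Atp5e are highest at day 4, Ndufs1 is lowest there, and Sdhd, Uqcrc1, Cox5a and Atp5g1 are lowest at day 3.

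The 7 assembly factors of complex I, proteins that help to build the complex and are no part of it when finished, moved in both directions against day 0. Between day 3 and day 4 only Ndufaf2 and Ndufaf3 were higher, by 0.29 and 0.31 (28.6% of the 7, against 15.8% of all genes), and 0 of the 7 with the ribosomal protein genes equalised. Their median was 0.02, with a sign that turned under that scaling and under median centring. Ndufaf6, needed early in assembly, read 8.08 and 7.98 at day 0, 7.10 and 7.27 at day 3, then 7.07 and 7.19 at day 4. It fell by 0.85 to day 3 (SE 0.08, adjusted p = 8.58e-05) and differed from day 0 by −0.90 at day 4 (adjusted p = 5.55e-05), and the arrays of day 3 and day 4 overlapped. Ndufaf4 read 9.23 and 9.23, then 8.65 and 8.43, then 8.88 and 8.72, a fall of 0.69 to day 3 and of 0.43 over the whole interval. Ndufaf3, a partner of Ndufaf4, went the other way, with 9.49 and 9.34, then 9.79 and 9.64, then 10.03 and 10.02, and a rise of 0.61 (SE 0.08, adjusted p = 0.000327). Partners of 1 assembly step thus had changes of opposite sign against day 0. From day 3 to day 4 Ndufaf4 also stood higher, by 0.26, with arrays that did not overlap, which did not pass (adjusted p = 0.07). Ndufaf1 rose by 0.43 to day 3 and 0.44 to day 4, and Ndufaf7, a methyltransferase, rose by 0.38 and 0.31, the latter lost in 3 of the alternatives. Ndufaf2 fell by 0.41 to day 3 and differed by −0.12 from day 0 at day 4 (adjusted p = 0.143), and Ndufaf5 passed in none of the 3 comparisons.

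Complex II, which also belongs to the citric acid cycle, was split between its 4 subunits. Sdhc and Sdhd, the membrane anchors that hold the haem, moved apart. Sdhc read 11.26 and 11.18 at day 0, 11.38 and 11.49 at day 3, then 11.72 and 11.75 at day 4, and rose by 0.52 over the whole interval (SE 0.06, adjusted p = 0.000278). Sdhd read 10.87 and 10.79, then 10.25 and 10.33, then 10.59 and 10.60. It fell by 0.54 to day 3 (SE 0.06, adjusted p = 0.00015), rose by 0.30 to day 4 (adjusted p = 0.00859) and differed from day 0 by −0.24 at day 4 (adjusted p = 0.00972), a call lost without the first day 0 array. From day 3 to day 4 both anchors thus rose by 0.30. Sdhb, the iron-sulphur subunit, was 0.21 above day 0 at day 4 (adjusted p = 0.0323), a call lost in 8 of the 14 alternatives, among them median centring, equalised ribosomal protein genes and leaving out any array but the first of day 0. Sdha, the flavoprotein, read 11.74 and 11.67, then 11.63 and 11.68, then 11.65 and 11.60, with a difference of −0.09 from day 0 to day 4 (adjusted p = 0.249).

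Complex III had the largest share of subunits that rose between day 3 and day 4, 6 of 8 (15.8% of all genes). The median was 0.30 (0.22 to 0.29 under the other 3 scalings). The number higher was 4 with the ribosomal protein genes equalised (8.14% of all genes), 5 with median centring (11.4%) and 6 with cyclic loess (13.3%). Uqcr10, a small subunit of the membrane part, rose most at this step. It read 10.39 and 10.43 at day 0, 9.85 and 10.03 at day 3, then 10.28 and 10.39 at day 4, so its day 3 arrays were lowest and the day 0 and day 4 arrays overlapped. It fell by 0.47 (SE 0.07, adjusted p = 0.00131) and rose by 0.40 (adjusted p = 0.00873). Uqcrc1, a core subunit, dipped likewise, with 11.91 and 11.90, then 11.58 and 11.61, then 11.90 and 11.92. It fell by 0.31 and rose by 0.32 (SE 0.05, adjusted p = 0.00154 and 0.00468), and the difference between day 0 and day 4 was 0.01. Its partner Uqcrc2 showed no dip, with 12.41 and 12.42, then 12.54 and 12.54, then 12.66 and 12.62, and a rise of 0.23 over the whole interval (adjusted p = 0.00683) that was lost with median centring.

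Uqcrh, the hinge subunit beside cytochrome c1, had overlapping arrays at day 0 and day 3 and higher ones at day 4, with 11.67 and 11.55, then 11.63 and 11.70, then 11.96 and 12.01. It rose by 0.33 from day 3 (SE 0.06, adjusted p = 0.01) and by 0.38 from day 0 (adjusted p = 0.00183). Uqcr11 rose by 0.30 from day 3 and 0.26 from day 0, the former lost in 4 and the latter in 3 of the alternatives. Uqcrb was the one subunit whose rise lay wholly before day 3, with 12.43 and 12.43, then 12.65 and 12.68, then 12.68 and 12.67. Uqcrfs1, the Rieske iron-sulphur protein, was higher by 0.26 at day 4 than at day 3 (adjusted p = 0.0254), which was lost in 5 of the 14 alternatives, and by 0.17 than at day 0 (adjusted p = 0.0638). Over the whole interval 4 of the 8 were higher (25.9% of all genes) and 0 lower (25.6% of all genes), with a median of 0.20. With median centring 1 was higher and 2 lower, with a median of 0.05. Cyc1, cytochrome c1 of this complex, is outside the symbol rule and not among the 8. It was called lower than at day 0 at day 3 (−0.40) and at day 4 (−0.19, lost in 3 of the 14 alternatives).

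Complex IV moved in both directions against day 0, and its isoform genes held the largest changes. Between day 3 and day 4, 7 of its 19 genes were higher (36.8%, against 15.8% of all genes) and 0 lower (12.2% of all genes), with a median of 0.17. The number higher was 5 with the ribosomal protein genes equalised (8.14% of all genes), 6 with median centring (11.4%) and 6 with cyclic loess (13.3%). Over the whole interval 4 were higher and 3 lower (21.1% and 15.8%, against 25.9% and 25.6% of all genes), with a median of 0.05, and median centring gave 1 higher and 7 lower and a median of −0.10. Among the common subunits, Cox4i1, the first nuclear subunit to join the core, read 11.56 and 11.49 at day 0, 11.39 and 11.46 at day 3, then 11.70 and 11.77 at day 4, and rose by 0.31 from day 3 (SE 0.06, adjusted p = 0.0084). Cox7a2l, which takes part in joining complexes into supercomplexes, read 9.12 and 9.10, then 8.99 and 9.13, then 9.44 and 9.55. Its day 0 and day 3 arrays overlapped and its day 4 arrays were highest, with a rise of 0.43 from day 3 (SE 0.07, adjusted p = 0.0047) and of 0.38 from day 0 (adjusted p = 0.0023). Cox5a, a subunit of the matrix side, was lower than at day 0 on both later days, with 10.93 and 10.93, then 10.56 and 10.51, then 10.65 and 10.77. It fell by 0.40 to day 3 (SE 0.06, adjusted p = 0.00102). At day 4 it differed from day 0 by −0.22, a call lost without either day 0 array or the first day 4 array. From day 3 to day 4 it stood higher by 0.18, with arrays that did not overlap, which did not pass (adjusted p = 0.0651). Cox5b, also on the matrix side, read 12.22 and 12.23, then 12.28 and 12.27, then 12.46 and 12.35, a rise of 0.18 over the whole interval (adjusted p = 0.0355) that was lost in 8 of the 14 alternatives, among them median centring, equalised ribosomal protein genes and leaving out any array but the second of day 4. Ndufa4 fell by 0.34 to day 3 and rose by 0.23 to day 4.

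The 8 isoform genes of complex IV that replace a common subunit in certain tissues or conditions split into 4 that passed in some comparison and 4 that passed in none. Cox4i2, the hypoxia-inducible counterpart of Cox4i1 known from lung, read 8.41 and 8.49 at day 0, 7.21 and 7.56 at day 3, then 8.27 and 8.37 at day 4. It fell by 1.06 to day 3 (SE 0.11, adjusted p = 0.000149) and rose by 0.93 to day 4 (adjusted p = 0.00167), the largest rise of any member at that step. Both day 4 arrays lay below both day 0 arrays, with a difference of −0.13 that did not pass (adjusted p = 0.375). Ndufa4l2, the hypoxia-inducible paralogue of Ndufa4, read 7.38 and 7.56, then 6.65 and 6.82, then 6.97 and 7.09, with a fall of 0.74 to day 3 (SE 0.09, adjusted p = 0.000296) and a rise of 0.30 to day 4 (adjusted p = 0.0427) that was lost in 6 of the 14 alternatives, the other 3 scalings among them. These 2 isoform genes thus had their lowest arrays at day 3. They belong to a list of kinases, uncouplers and hypoxia switches, described below, that did not move as 1. At day 3 versus day 0, 4 of its 10 measured genes were higher and 5 lower (23.8% and 28.1% of all genes). The 4 higher were Pdk2, Pdk1, Pdk3 and Higd1a, with rises of 1.72, 1.45, 0.62 and 0.32. The 5 lower were these 2 isoform genes and Pdk4, Ucp1 and Lonp1 (−0.99, −0.42 and −0.29).

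Cox7a1, the heart and skeletal muscle form of Cox7a, read 8.37 and 8.17 at day 0, 7.04 and 7.32 at day 3, then 7.23 and 7.20 at day 4. The day 0 arrays were highest and those of day 3 and day 4 overlapped. It fell by 1.09 to day 3 (SE 0.11, adjusted p = 0.000104) and differed from day 0 by −1.05 at day 4 (adjusted p = 0.00011). Of the 17 heart and skeletal muscle markers, 3 were higher and 5 lower at day 4 than at day 0. These are 17.6% and 29.4%, against 25.9% and 25.6% of all genes. The part of these markers in the fall of Cox7a1 was not tested. The ubiquitous form Cox7a2 fell by 0.26 to day 3 and differed by −0.09 from day 0 at day 4 (adjusted p = 0.25). Cox6b2, known from testis, rose instead, with 8.66 and 8.70 at day 0, 9.004 and 9.004 at day 3, then 8.94 and 9.14 at day 4, by 0.32 to day 3 (SE 0.07, adjusted p = 0.00832) and 0.36 to day 4 (adjusted p = 0.00485), the latter lost with median centring. The germ cell markers did not rise with it. At day 4 versus day 0, 0 of 9 were higher (25.9% of all genes) and 2 lower (25.6% of all genes). Of the 9, 7 stayed below 6 on all arrays. The muscle forms Cox6a2 and Cox8b and the testis forms Cox7b2 and Cox8c passed in none of the comparisons. Cox6a2 lay between 6.54 and 6.86 and Cox8c between 6.27 and 6.63 on the 6 arrays, and Cox8b and Cox7b2, the 2 members with a mean below 6, lay between 5.63 and 5.74 and between 4.46 and 4.65.

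**Figure D4:**
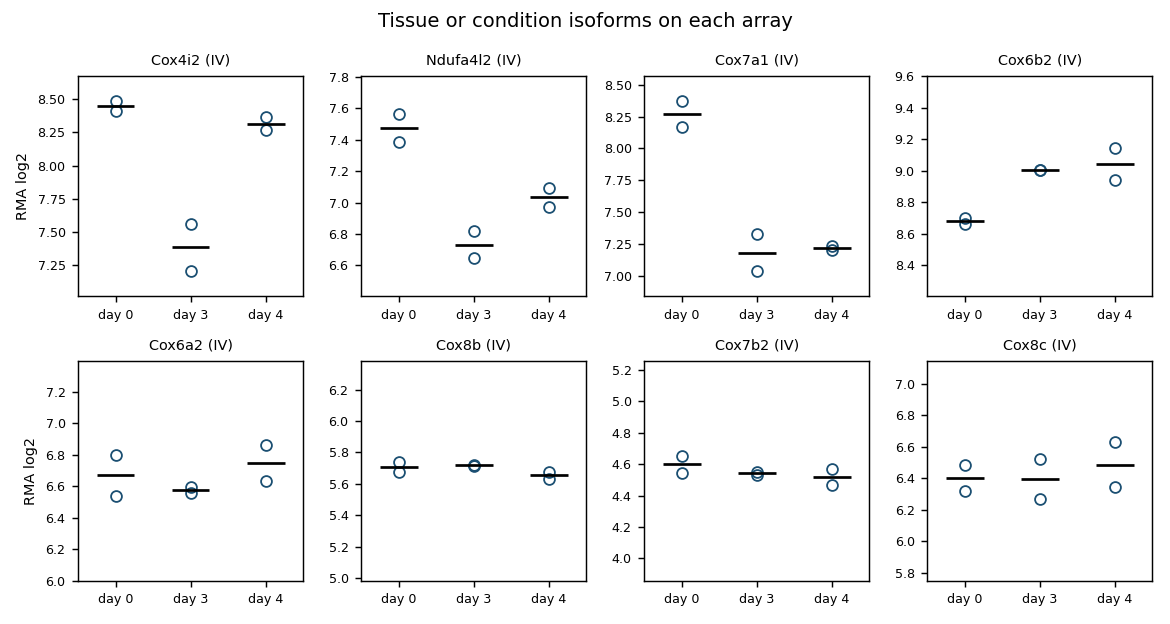
Log2 intensity (RMA, y axis) on each of the 6 arrays for the 8 isoform genes of complex IV, with circles for arrays and bars for the mean of a day. Cox4i2 dips at day 3 and returns, Ndufa4l2 dips and returns in part, Cox7a1 is about 1 lower at both later days, and Cox6b2 is higher at both. The 4 genes of the lower row passed in none of the comparisons. The day 4 arrays of Cox6a2 lie above its day 3 arrays, and those of Cox8b below.

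Complex V rose between day 3 and day 4 in 8 of its 17 genes (47.1%, against 15.8% of all genes), with 0 lower (12.2% of all genes). The difference was positive for all 17, with a median of 0.15. The number higher was 4 with the ribosomal protein genes equalised (8.14% of all genes), 7 with median centring (11.4%) and 8 with cyclic loess (13.3%). Atp5e, which encodes the small epsilon subunit of the central stalk, had the largest rise of any subunit outside the isoform genes. It read 9.17 and 9.20 at day 0, 8.89 and 9.003 at day 3, then 9.61 and 9.65 at day 4. Its day 3 arrays were lowest and its day 4 arrays highest, with a fall of 0.24 to day 3 (SE 0.06, adjusted p = 0.0117), which was lost without the second day 0 or the first day 3 array, and a rise of 0.68 to day 4 (adjusted p = 0.000579). The catalytic subunits passed in none of the comparisons. Atp5b, the beta subunit, read 13.45 and 13.43, then 13.37 and 13.37, then 13.40 and 13.38, and Atp5a1, the alpha subunit, read 12.49 and 12.45, then 12.55 and 12.53, then 12.58 and 12.55. Their differences between day 3 and day 4 were 0.02 and 0.03 (adjusted p = 0.826 and 0.755), and that of Atp5c1, the gamma subunit, was 0.06 (adjusted p = 0.432).

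The c subunits, which form the rotating ring in the membrane, are encoded by 3 genes whose mature proteins are identical. Atp5g1 read 12.86 and 12.82 at day 0, 12.58 and 12.56 at day 3, then 12.87 and 12.93 at day 4, and Atp5g3 read 12.13 and 12.10, then 11.76 and 11.77, then 12.05 and 12.03. Both were lowest at day 3, with falls of 0.27 and 0.35 (SE 0.05, adjusted p = 0.00419 and 0.000738) and rises of 0.33 and 0.28 (adjusted p = 0.00503 and 0.00775). Atp5g2 read 12.81 and 12.85, then 12.80 and 12.81, then 12.95 and 12.96, with a difference of 0.15 between day 3 and day 4 that did not pass (adjusted p = 0.0669). Among the small membrane subunits, Atp5mpl fell by 0.26 and rose by 0.36, Atp5k fell by 0.31 and rose by 0.20, and Atp5l was higher at day 4 than at day 3 by 0.35. The rise of Atp5k was lost in 10 of the 14 alternatives, among them leaving out any 1 array. Over the whole interval Atp5e, Atp5j2, Atp5md and Atp5d were higher, by 0.44, 0.27, 0.17 and 0.14, and 0 genes were lower (23.5% and 0, against 25.9% and 25.6% of all genes). The calls of Atp5md and Atp5d were lost in 9 and 10 of the 14 alternatives. With median centring 1 gene of complex V, Atp5e, was higher and 4 were lower, the median moved from 0.10 to −0.05, and the difference of Atp5d was −0.0025.

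By role, the 22 measured core or catalytic subunits had 9 higher (40.9%) and 0 lower at day 4 versus day 3, with a median of 0.18, against 50.6% and 0.21 for the members as a whole and 15.8% and 0.05 for all genes. At day 3 versus day 0, 1 of the 22 was higher (23.8% of all genes) and 5 were lower (28.1% of all genes), and at day 4 versus day 0 9 were higher (25.9% of all genes) and 3 lower (25.6% of all genes). The difference between core and other subunits was not tested.

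Other genes of mitochondrial energy metabolism were counted in lists, to be read against the same shares of all genes. From day 3 to day 4 these were 15.8% higher and 12.2% lower. They were 23.8% and 28.1% at day 3 versus day 0, and 25.9% and 25.6% at day 4 versus day 0. The 13 measured genes of electron carriers and coenzyme Q synthesis had 5 higher at day 4 than at day 3 and 0 lower. They include Coq4 and Coq9, needed for coenzyme Q synthesis (0.36 and 0.32), and Cyc1, cytochrome c1 of complex III (0.20, lost in 6 of the 14 alternatives). Cycs, cytochrome c itself, differed by −0.16 at this step (adjusted p = 0.0644) and fell by 0.28 between day 0 and day 4. Among 43 assembly factors of all complexes, 7 of them members, 17 were higher at day 4 than at day 3 and 1 was lower, with 9 and 1 under median centring and 5 and 1 with the ribosomal protein genes equalised. Cox14 rose by 0.44 and Cox20 by 0.39 at this step, both needed for the assembly of complex IV, and Lrpprc, which stabilises mitochondrial mRNA, fell by 0.30. None of the 15 mitochondrially encoded genes was measured on the probe sets used here, so the subunits made inside the organelle were not analysed here.

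The citric acid cycle and pyruvate dehydrogenase genes had 12 of 19 lower at day 3 than at day 0 (28.1% of all genes). At that step 2 of them were higher (23.8% of all genes). From day 3 to day 4, 7 were higher and 1 lower (2 and 2 with the ribosomal protein genes equalised). Idh3a, a subunit of the NAD-dependent isocitrate dehydrogenase, fell by 1.11 to day 3 and differed by 0.02 from day 3 to day 4. Idh2 rose by 0.54 to day 3 and 0.84 to day 4, and Mpc1, a subunit of the carrier that brings pyruvate into the organelle, rose by 0.89 and 1.49. The kinases that switch off pyruvate dehydrogenase moved apart. Pdk1 and Pdk2 rose by 1.32 and 2.14 from day 0 to day 4, Pdk3 rose by 0.58, and Pdk4 fell by 0.99. In the list of these kinases, uncouplers and hypoxia switches, 2 of whose 10 measured genes are members, 3 were higher and 1 lower at day 4 than at day 3. The 17 glycolysis genes had 1 higher and 2 lower at that step. At day 4 versus day 0 they had 5 higher and 7 lower (29.4% and 41.2%, against 25.9% and 25.6% of all genes). The list holds transporters of glucose and lactate beside the enzymes. The transporters Slc2a3, Slc16a1 and Slc2a1 were among the 7 lower (−2.04, −1.69 and −0.83). Gapdh, Eno1 and Gpi1 were not among the genes measured.

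Genes that regulate the making of mitochondria moved in both directions, with more lower than higher against day 0. Of 17 measured, 2 were higher and 2 lower at day 4 than at day 3. At day 3 versus day 0, 3 were higher and 9 lower (17.6% and 52.9%, against 23.8% and 28.1% of all genes). At day 4 versus day 0, 3 were higher and 8 lower (17.6% and 47.1%, against 25.9% and 25.6% of all genes). Ppargc1a, a coactivator of respiratory genes, read 5.65 and 5.87 at day 0, 7.27 and 7.32 at day 3, then 8.08 and 7.78 at day 4, the 3 days in order and apart, with rises of 1.54 to day 3 and 0.63 from day 3 to day 4 (adjusted p = 2.26e-05 and 0.00693). Esrrg, a nuclear receptor that works with it, rose by 2.01 from day 0 to day 4. Pprc1, a relative of Ppargc1a, fell by 1.17, and Polg, the polymerase of mitochondrial DNA, fell by 1.54. Nrf1, the factor of the NRF1 motif, read 9.58 and 9.55, then 9.30 and 9.32, then 9.37 and 9.39, a fall of 0.25 to day 3 and a difference of 0.07 from day 3 to day 4 (adjusted p = 0.337). Gabpa, Gabpb1, Yy1 and Tfam passed in none of the comparisons.

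The 77 mitochondrial ribosomal protein genes moved in the same direction as the members at day 4 versus day 3, with 30 higher and 0 lower and a median of 0.15 (13 and 0 with the ribosomal protein genes equalised). At day 3 versus day 0 they had 3 higher and 53 lower (3.9% and 68.8%, against 23.8% and 28.1% of all genes). Their median there was −0.30 (−0.40 to −0.24 under the other 3 scalings). The members had 9 and 27 of 89 and a median of −0.05. At day 4 versus day 0, 7 of the 77 were higher and 31 lower (9.09% and 40.3%, against 25.9% and 25.6% of all genes). The 60 cytosolic ribosomal protein genes had 7 higher and 2 lower at day 4 versus day 3, with a median of 0.05, which was −0.03 under the scaling that equalises these genes. Of the 13 carriers and porins, 1 was higher and 1 lower at that step. Slc25a5, an ADP/ATP carrier, fell by 0.65 to day 3 and differed by 0.01 from day 3 to day 4. Of 11 fusion and fission genes 2 were higher and 1 lower from day 3 to day 4. The list of mitochondrial peroxide defence also holds Cat and Sod1, whose proteins lie mainly outside the organelle. Of its 9 genes, 2 were higher and 0 lower from day 3 to day 4. At day 3 versus day 0, 1 was higher and 6 lower (11.1% and 66.7%, against 23.8% and 28.1% of all genes).

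**Figure D5:**
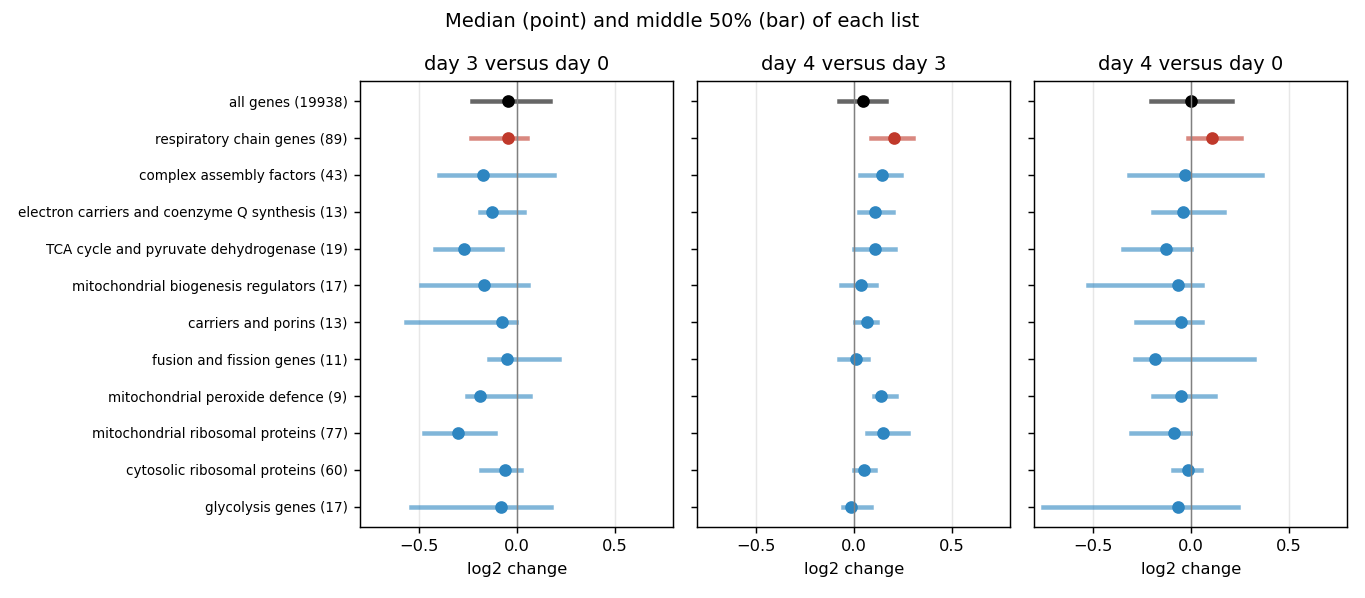
Median log2 change (point) and middle 50% (bar) of the respiratory chain genes, of all genes and of 10 lists of related genes in the 3 comparisons, with the number of genes measured in brackets. At day 4 versus day 3 the respiratory chain genes have a median of 0.21, the mitochondrial ribosomal proteins 0.15, the cytosolic ribosomal proteins 0.05 and all genes 0.05. The medians in all 3 panels shift with the scaling of the arrays.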

How the data were processed

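The authors deposited log2 intensities made by RMA in Partek, both named in the submitters' processing notes. The Partek version was not given in the sources used here. RMA corrects the background, quantile-normalizes the arrays and summarises the probes of a probe set. The values therefore do not show changes in total RNA, and they understate differences of dim genes. The scanner files were not used here. Of 35557 probe sets, 21789 carried 1 gene symbol in the platform annotation, 1621 carried several and 12147 were unnamed here. RefSeq (GRCm38.p6), which served for names and promoters, held the gene number of 21698 of those with 1 symbol. The array files name no build, so no coordinates are given for probe sets. The brightest probe set stood for each of 999 genes with several, which gave 19938 genes, and 17 members had several. No filter on low intensities was used, and 87 of the 89 members had a mean of 6 or more. Respiratory chain genes have many processed pseudogenes, whose transcripts a probe set may also measure.

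limma 3.58.1 in R 4.3.3 (lmFit and eBayes, no trend, not robust) was fitted to all 6 arrays with a mean per day (3 residual and 4.07 prior degrees of freedom). Two-sided p-values were Benjamini-Hochberg adjusted over the 19938 genes, and genes were called at 0.05 or below. SE come from this fit. The fit was tested on simulated data. Precision is limited by the number of arrays. The alternatives were median centring, cyclic loess, arrays shifted to equal the cytosolic ribosomal protein genes, an intensity trend with robust moderation, the mean of all probe sets of a gene, genes with a mean of 6 or more, only the 4 arrays of the days compared, the replicate number as a block, and leaving out each array. The 3 scalings named in the text are the first 3.

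The genes named are, in each complex, the 3 largest rises and falls among those called and not overlapping at day 4 versus day 0 and the 2 largest each way in the other comparisons, all isoform and core genes, and a few of each pathway list. Other genes named were chosen after their values were seen. The members, the lists (assembly factors, electron carriers, citric acid cycle, kinases and uncouplers, biogenesis, carriers, fusion and fission, peroxide defence, glycolysis, ribosomal proteins, and markers of ES, red, muscle and germ cells) and the motifs were chosen with earlier results of these data known. The short NRF1 form replaced one that was 1 base longer after the motif shares had been seen.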

Additional observations from a re-analysis of the deposited data

Results flagged for a closer look

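Probe sets that name more than 1 gene were left out of the tests, and on 5 of these, which carry a gene of the respiratory chain, both day 4 arrays stood above both day 0 arrays. They are given as values with no test. The 3 probe sets shared by Cox7c, a small subunit of complex IV, and the predicted gene Gm12338 had both day 3 and both day 4 arrays above both day 0 arrays. Probe set 10388461 was 0.378 higher at day 3 and 0.3193 higher at day 4 (log2), probe set 10410921 was 0.3493 and 0.303 higher, and probe set 10442922 was 0.3381 and 0.2993 higher. On all 3 the day 3 mean was the highest, so the level at day 4 was not above that at day 3. The 2 probe sets shared by Ndufb4, an accessory subunit of complex I, and its copy Ndufb4b had both day 4 arrays above both day 0 arrays. Probe set 10439398 was 0.0096 higher at day 3 and 0.3589 higher at day 4, and probe set 10462193 was 0.3185 higher at day 4. The rise on these 2 probe sets thus lay between day 3 and day 4, and it cannot be assigned to 1 of the genes they name.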

How the results depend on the processing

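Of the calls on single members, 20 of 43 at day 4 versus day 0, 26 of 36 at day 3 versus day 0 and 12 of 45 at day 4 versus day 3 held under every alternative. At day 4 versus day 0, median centring gave 16 members higher and 22 lower, a median of −0.0393 and a difference of −0.0025 for Atp5d. At day 3 versus day 0, median centring gave 42 lower and a median of −0.148, cyclic loess 16 higher and a median of −0.0078, equalised ribosomal protein genes a median of 0.0087, and the intensity trend with robust moderation 19 higher. At day 4 versus day 3, median centring gave a median of 0.1603, equalised ribosomal protein genes 24 higher and a median of 0.1257, and the intensity trend 1 lower. The cause of these shifts was not tested, beside the shift of whole arrays that centring makes. Without 1 array, the counts of members were 26 to 31 higher and 4 to 7 lower at day 4 versus day 0, 7 to 9 and 19 to 27 at day 3 versus day 0, and 18 to 43 and 0 at day 4 versus day 3, with the lowest without the first day 0 array (4 lower), the second day 0 array (5 lower, and 7 and 19), the first day 3 array (18) and the second day 4 array (18). A day left with 1 array is assumed to vary like the others.

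The labels number the arrays 1 and 2 on each day. The correlation of the deviations of same-numbered arrays from their day means was 0.0342, 0.058 and 0.0834 over all genes and 0.0429, 0.104 and 0.233 over the members (day 0 with day 3, day 0 with day 4 and day 3 with day 4), so the numbers were not taken as pairs. With the replicate number as a block, 34 members were higher and 8 lower at day 4 versus day 0, 9 and 26 at day 3 versus day 0, and 45 and 0 at day 4 versus day 3.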

Other observations

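The probe set shared by Ndufs5 and the pseudogene Ndufs5-ps, which no comparison used, read 7.81 and 7.54 on the day 0 arrays, then 7.35 and 7.32, then 7.85 and 7.69. The probe set of Ndufs5 alone read 7.42 and 7.38, then 7.16 and 7.06, then 7.53 and 7.24. Both had their lowest arrays at day 3, and on both probe sets these lay below both day 0 arrays. The probe sets of a member differed in sign for Uqcrb between day 3 and day 4 (0.01, −0.03 and 0.05), for Cox7b between day 0 and day 3 (0.03 and −0.01), and for Atp5pb (0.01 and −0.08) and Ndufab1 (−0.03 and 0.01) between day 0 and day 4.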
